A study of Mus musculus with 19 samples.

Results

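The 10 genes that carry the purine analogue cladribine into a cell, activate it, break it down or meet it as a target were followed across mouse liver tumours. They are the nucleoside transporters Slc29a1, Slc29a2 and Slc28a2, the kinases Dck and Dguok, the nucleotidase Nt5c2, the triphosphohydrolase Samhd1, the adenosine deaminase gene Ada, and the ribonucleotide reductase genes Rrm1 and Rrm2. The genes were chosen by their known roles, and all 10 were found among the 39179 gene identifiers of the count table. Cladribine was tested as a treatment in this tumour model, and the question asked here was how evenly its uptake and activation genes were transcribed from tumour to tumour. The labels name no drug for these samples, so the values describe the tumours themselves and not a response.

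Polyadenylated RNA was sequenced from 13 liver tumours, 3 control livers and 3 high AAV control livers of male mice, and the 10 tumours numbered 04 to 13 were analysed here. Each mouse was heterozygous for Ctnnb1tm1Mmt, an allele that yields stabilised β-catenin once Cre has acted, and homozygous for Gt(ROSA)26Sortm1(MYC)Djmy, a human MYC transgene switched on by Cre. Tumours and controls received the vector AAV8.TBG.PI.Cre.rBG at 640000000 genome copies per mouse, and high AAV controls received 200000000000. TBG is a hepatocyte promoter, so Cre was directed at hepatocytes and not at the vessels, macrophages and blood of each piece of tissue. Neither control group was analysed here, so nothing below sets a tumour against non-tumour liver. The tumours carried 5 different tags in the names of the count columns, and the first part of the tag divided them into families of 3 (RMH4, tumours 04 to 06), 2 (RMH18, tumours 07 and 08) and 5 (RMH35, tumours 09 to 13). The labels do not say what the tag stands for, and tumours with the same tag may share an animal. The main fits treat the 10 tumours as independent, so p-values below measure the spread between these samples and not between animals. They can be too small if tumours share an animal.

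Cladribine is a chlorinated deoxyadenosine that adenosine deaminase hardly degrades. It enters through equilibrative transporters (the Slc29 family) and concentrative transporters (the Slc28 family), and deoxycytidine kinase, encoded by Dck, adds the first phosphate in the cytosol, while deoxyguanosine kinase, encoded by Dguok, can do so in mitochondria. Cytosolic nucleotidases such as the product of Nt5c2 can take that phosphate off again, SAMHD1 splits deoxynucleoside triphosphates, and cladribine triphosphate inhibits ribonucleotide reductase, the enzyme formed by RRM1 and RRM2 that makes deoxynucleotides for DNA synthesis.

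Gene counts summed to between 11687034 (tumour 07) and 36964427 (tumour 13) per library, and 3 counts corresponded to 0.0812 to 0.257 CPM (counts of a gene per 1000000 counts, scaled with TMM factors). All 12 hepatocyte markers had counts in each of the 10 tumours, and their summed level was 45580 to 67739 CPM, led by Alb. Summed endothelial markers, led by Eng, were lowest in tumour 11 (83.5 CPM) and highest in tumour 07 (549 CPM), and summed macrophage markers, led by C1qb, from 188 to 564 CPM with Marco at 0 in a tumour. Summed lymphocyte markers, led by Ptprc, ranged from 3.71 to 18.6 CPM, and 6 of 12 (Cd3g, Cd3d, Cd8a, Ms4a1, Trbc2 and Cd2) were at 0 in a tumour. Tumour 07 stood apart in blood genes (5931 CPM against a median of 241) and in small non-polyadenylated RNAs (86.1 CPM against a median of 5.25).

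Transcripts of the uptake genes were very unequal. Slc29a1, which encodes the equilibrative transporter ENT1, was the most abundant of the 10 genes per length at 24.6 ± 6.85 CPM per kb of exons (SD, n = 10) and ranked first in each tumour. Slc29a2, encoding ENT2, reached 0.323 CPM per kb and Slc28a2, encoding the purine-preferring concentrative transporter CNT2, 0.0350 CPM per kb. The log2 ratio of Slc29a1 to Slc29a2 per kb was 6.36 ± 0.81 (SD, n = 10) and lay between 4.77 in tumour 09 and 7.96 in tumour 07. The value of tumour 07 rests on 5 counts of Slc29a2. The next highest ratio was 7.02 in tumour 08 and the next lowest 5.81 in tumour 06.

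Slc29a1 (ENSMUSG00000023942, a protein-coding gene at chr17:45585200-45599618 on the reverse strand of GRCm38) stood at 140, 179 and 185 CPM in tumours 04, 05 and 06. It stood at 163 and 178 CPM in tumours 07 and 08. In tumours 09 to 13 it stood at 112, 174, 281, 268 and 220 CPM. Both the lowest and the highest tumour thus belonged to the family RMH35, and tumours 11, 12 and 13, which carry 1 shared tag (RMH35_1c), exceeded every other tumour, tumours 09 and 10 (RMH35_1b) included. The share of all genes that separate these tumours in this way was not counted, so the separation is not known to be unusual. The highest value was 2.51-fold the lowest, and the SD of 0.40 on the log2 scale sat at percentile 69.4 among 625 genes of similar expression. In tumour 11 the gene lay 0.68 log2 units above the mean of the other tumours, where the median of 578 genes of chromosome 17 lay 0.28 above and the median of 26 genes within 1 Mb 0.24 above. In tumour 12 the gene lay 0.61 above, against 0.13 for chromosome 17. An antisense gene that overlaps its exons, Gm17080, was at 1.44 CPM, far below Slc29a1.

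Slc29a1 had a downward slope on endothelial transcripts that missed the threshold. Its slope was −0.29 ± 0.09 log2 units per SD of the endothelial score (SE, n = 10, p = 0.00938 and adjusted p = 0.169 in edgeR's quasi-likelihood test with Benjamini-Hochberg adjustment over 12497 genes). In that fit 319 genes (2.55%) passed, with none of the 10 genes among them, and in DESeq2's Wald test 4.59% passed. At an unadjusted p under 0.05, 13.9% would pass. Leaving out each tumour in turn kept the slope between −0.35 and −0.22. Tumours 11, 12 and 13, which share a tag and were highest for Slc29a1, had endothelial scores of 2.16, 2.47 and 2.59. Tumour 10 had a score of 2.55 with Slc29a1 at 174 CPM. Leaving out single tumours cannot separate the slope from tumours that share a tag. In bulk tissue, fewer cells of a type and less RNA per cell cannot be told apart.

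Slc29a2 (ENSMUSG00000024891, chr19:5019057-5031972, forward strand) was at 1.69 ± 0.707 CPM (SD, n = 10). It was lowest in tumour 07 at 0.443 CPM, from 5 counts, and highest in tumour 09 at 2.79 CPM, from 46 counts, with a median of 1.57 CPM. The SD of 0.71 log2 units, 0.46 without tumour 07, exceeded the 0.32 that counting alone would give. Slc28a2 (ENSMUSG00000027219, chr2:122426357-122461152, forward strand) had 35 counts over all 10 libraries, none in tumour 09 and at most 10 in tumour 13, and did not exceed 0.364 CPM. At this depth tumours could not be ordered by Slc28a2. Counting alone would give an SD of 0.84 log2 units over the tumours with counts, and 0.58 was measured over all 10. The measured SD includes a prior count of 2, which shrinks differences at such low counts, so these SDs are not directly comparable.

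Other transporters of the list ranged widely in level. Slc29a3, whose product ENT3 works in lysosomes, was at 5.70 ± 1.08 CPM (SD, n = 10). Slc28a1, encoding the pyrimidine-preferring transporter CNT1, ranged from 0 to 14.3 CPM and was at 0 in tumour 07. Among the export pumps Abcc4 reached 540 CPM in tumour 13 against a mean of 171 ± 138 CPM, and Abcg2 was at 76.4 ± 25.9 CPM (SD, n = 10 each). Of the 13 transport genes 7 passed the filter on low counts, and 0 of these had a slope on proliferation at an unadjusted p under 0.05, where 5.99% of all genes tested did.

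**Figure D1:**
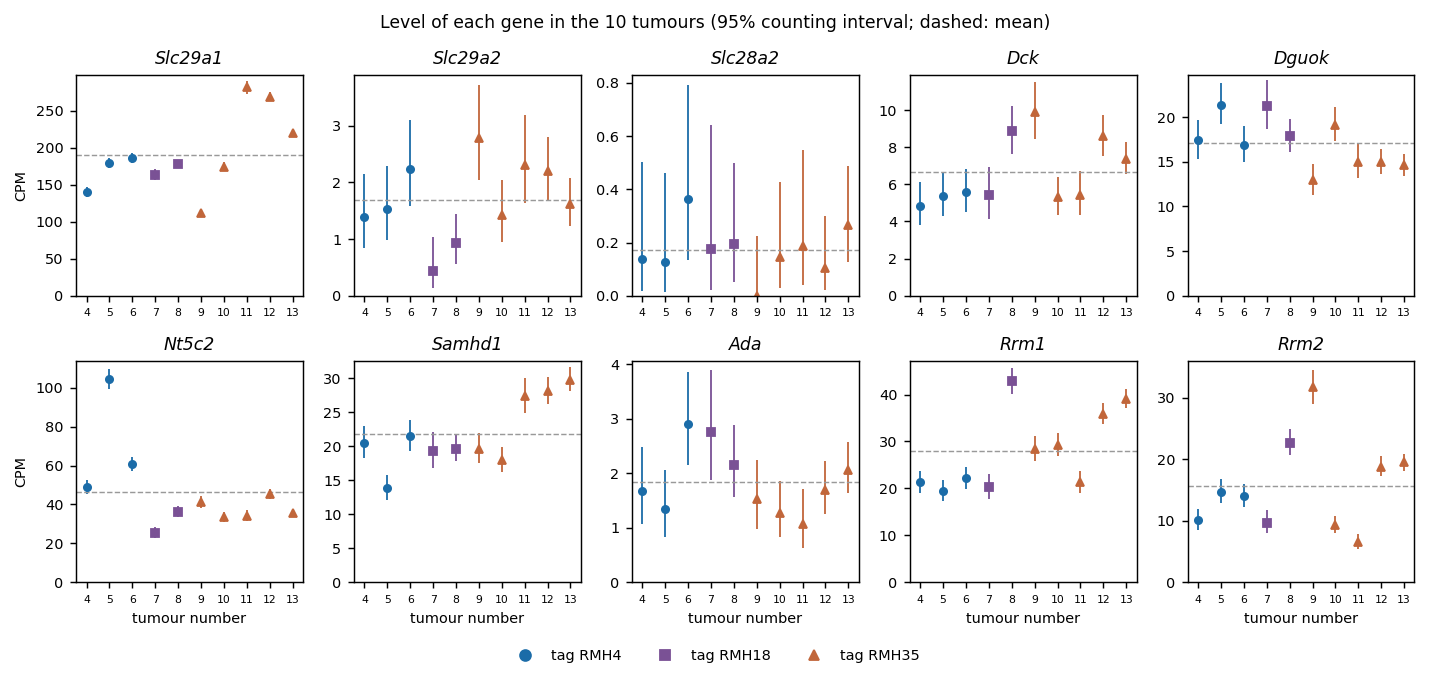
Level of each of the 10 genes (y axis, CPM, linear from 0) in tumours 04 to 13 (x axis), with 95% exact Poisson intervals for counting error and the mean as a dashed line. Symbols mark the 3 tag families. Dck was between 4.86 and 5.58 CPM in 6 tumours and between 7.38 and 9.88 CPM in tumours 08, 09, 12 and 13, and Nt5c2 reached 104 CPM in tumour 05.

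Dck, the gene of the activating kinase, lay in a lower and a higher range that met within counting error. Dck (ENSMUSG00000029366, chr5:88765013-88783277, forward strand) stood at 4.86, 5.37 and 5.58 CPM in tumours 04, 05 and 06, at 5.40 CPM in tumour 07 and 8.86 CPM in tumour 08, then at 9.88, 5.32, 5.43, 8.58 and 7.38 CPM in tumours 09 to 13. Tumours 08, 09, 12 and 13 were therefore above the other 6, and the nearest values on either side were 7.38 CPM in tumour 13 and 5.58 CPM in tumour 06. These levels came from 61 to 279 counts, and counting alone would give an SD of 0.14 log2 units where 0.37 was measured. That spread was ordinary for the gene's expression (percentile 40.0 of 625 genes). The mean was 6.67 ± 1.84 CPM, and the highest tumour exceeded the lowest 2.03-fold.

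Dguok (ENSMUSG00000014554, chr6:83480214-83506969, reverse strand), which encodes the mitochondrial kinase of deoxyguanosine and deoxyadenosine, was the steadiest of the 10 genes. Its level was 12.9 CPM in tumour 09, 17.1 CPM at the median and 21.4 CPM in tumour 05, a 1.66-fold range (SD 0.24 log2 units, percentile 23.7). Tumour 09 was thus the lowest for Dguok and the highest for Dck. The log2 ratio of Dck to Dguok per kb ran from −1.71 in tumour 05 to −0.10 in tumour 09, with a mean of −1.11 ± 0.56 (SD, n = 10), and was below 0 in each tumour.

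The list of 15 kinases of deoxynucleoside supply, all of which passed the filter, also held Tk1 (10.1 ± 3.83 CPM), the cytosolic thymidine kinase of dividing cells, Tk2 (22.7 ± 3.45 CPM), its mitochondrial counterpart, and Adk (454 ± 82.8 CPM), the adenosine kinase of hepatocytes, each as mean ± SD with n = 10. Per kb of exons Adk reached 39.8 ± 7.26 CPM, which is above each of the 10 genes. Tk1 was lowest in tumour 09, at 5.15 CPM, where Dck and Rrm2 were highest. Its slope on proliferation was 0.32 ± 0.15 (SE, n = 10).

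Nt5c2 was most abundant in tumour 05. Nt5c2 (ENSMUSG00000025041, chr19:46885390-47015174, reverse strand), the cytosolic nucleotidase with a preference for purine monophosphates, was at 49.0, 104 and 60.7 CPM in tumours 04, 05 and 06. It was at 25.4 CPM in tumour 07 and 36.3 CPM in tumour 08, then at 41.2, 33.5, 34.1, 45.2 and 35.5 CPM in tumours 09 to 13. The 3 tumours of the family RMH4 were the 3 highest, a separation found for 2.61% of the genes that passed the filter, and the counting intervals of tumour 04 (45.4 to 52.7 CPM) and tumour 12 (42.8 to 47.7 CPM) overlapped. On the log2 scale the gap between tumour 05 and the next tumour was 0.384 of the whole range, under Dixon's 95% critical value for 10 samples. In tumour 05 the gene lay 1.42 log2 units above the mean of the other tumours, whereas the median of 435 genes of chromosome 19 lay 0.12 below and that of 30 genes within 1 Mb 0.12 above. Its SD of 0.56 log2 units sat at percentile 90.4 of genes of similar expression and became 0.36 without tumour 05.

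The difference of Nt5c2 between the 3 tag families missed the threshold in edgeR's quasi-likelihood test (p = 0.00269, Benjamini-Hochberg adjusted p = 0.184, 12497 genes), in which 1 gene (0.008%) passed and 13.3% would pass unadjusted, and passed it in DESeq2's likelihood ratio test (adjusted p = 0.00853), in which 498 genes (4.0%) passed. Without tumour 05 the adjusted p in edgeR was 0.688. The slope of Nt5c2 on proliferation was −0.25 ± 0.16 (SE, adjusted p = 0.865), and it turned to 0.01 without tumour 05 and to 0.06 with the tag family as a block. Small non-polyadenylated RNAs were also higher in tumours 05, 06 and 07 than in the other 7, and with their score as a covariate the adjusted p for the tag families was 0.620.

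Samhd1 (ENSMUSG00000027639, chr2:157097534-157135096, reverse strand) was higher in tumours 11, 12 and 13, at 27.4, 28.2 and 29.8 CPM, than in the other 7, of which the lowest was tumour 05 at 13.9 CPM and the highest tumour 06 at 21.5 CPM. The median of all 10 was 20.1 CPM and the range 2.15-fold (SD 0.34 log2 units, percentile 59.2). Tumours 11, 12 and 13 were also the 3 highest for Slc29a1. The share of all genes with these tumours highest was not counted, so the pattern is not known to be particular to these genes. As they carry the same tag they may come from 1 animal, and tumour and animal cannot be told apart. Samhd1 is widely known as a gene that interferon can induce, and its slope on the interferon score was 0.12 ± 0.11 (SE, n = 10, adjusted p = 0.947 in edgeR's quasi-likelihood test, in which 0.0% of genes passed, against 0.4% in DESeq2 and 5.29% at an unadjusted p under 0.05). Its slope on the macrophage score was 0.14 ± 0.12 (SE, adjusted p = 0.870, with 0.0% of genes passing, against 0.512% in DESeq2 and 8.19% at an unadjusted p under 0.05), and it turned to −0.05 without tumour 05.

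Other nucleotidases were measured as well. Nt5e, the ecto-nucleotidase CD73 of the cell surface, was at 118 ± 25.7 CPM and Nt5c, a cytosolic deoxyribonucleotidase, at 34.6 ± 8.28 CPM (SD, n = 10 each). Nt5c1a, the form of muscle, had 0 counts in the 10 libraries, against a floor of 0.0812 CPM in the deepest. Of the 9 genes of the list 7 passed the filter, and 0 of these had a slope on proliferation at an unadjusted p under 0.05, against 5.99% of all genes.

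Ada was scarce. Ada (ENSMUSG00000017697, chr2:163726571-163750239, reverse strand), whose product inactivates natural adenosine and deoxyadenosine, was at 1.06 CPM in tumour 11, 1.67 CPM at the median and 2.91 CPM in tumour 06, from 17 to 78 counts. The measured SD of 0.45 log2 units compares with 0.26 from counting alone. Its exons overlap those of Pkig on the opposite strand, which was at 18.7 CPM, and because the use of strand in counting was not stated, reads of the 2 genes cannot be told apart with certainty. Of the other 10 genes of deamination and phosphorolysis 9 were matched by symbol. Among them Upp1, uridine phosphorylase, had a slope on proliferation of −0.88 ± 0.38 (SE, unadjusted p = 0.0415, and adjusted p = 0.832 in edgeR's quasi-likelihood test), the 1 of 9 filtered genes of the list under an unadjusted 0.05, against 5.99% of all genes, and Xdh, xanthine dehydrogenase, was at 167 ± 75.8 CPM (SD, n = 10).

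**Figure D2:**
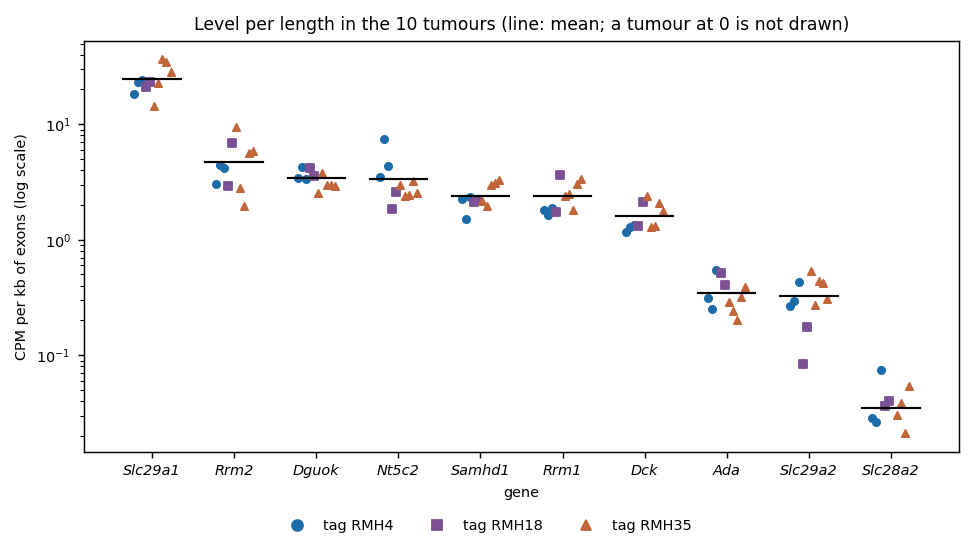
Level per length of the 10 genes (y axis, CPM per kb of exons, log scale), ordered by their mean (black line), with 1 point per tumour and symbols for the 3 tag families. Slc29a1 lies above all other genes in each tumour, Rrm2, Dguok, Nt5c2, Samhd1 and Rrm1 overlap, and Ada, Slc29a2 and Slc28a2 lie lowest.

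In the order of level per kb of exons Slc29a1 was followed by Rrm2 at 4.72, Dguok at 3.40, Nt5c2 at 3.35, Samhd1 at 2.38, Rrm1 at 2.38, Dck at 1.61, Ada at 0.347, Slc29a2 at 0.323 and Slc28a2 at 0.0350 CPM per kb. Several neighbours could not be separated. Rrm2 was above Dguok in 6 of 10 tumours, Dguok above Nt5c2 in 5, Nt5c2 above Samhd1 in 7, Samhd1 above Rrm1 in 5 and Ada above Slc29a2 in 5. Slc29a1 was above Rrm2, Rrm1 above Dck, Dck above Ada and Slc29a2 above Slc28a2 in 10 of 10 tumours. When the length of the longest transcript was used instead, Dguok (7.02 CPM per kb) came before Rrm2 (5.98 CPM per kb), and Slc29a2 before Ada.

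The balance of Dck against the enzymes that undo its product differed between tumours. The log2 ratio of Dck to Nt5c2 per kb was −1.59, −2.54 and −1.70 in tumours 04, 05 and 06, −0.49 and −0.29 in tumours 07 and 08, and −0.32, −0.91, −0.91, −0.65 and −0.52 in tumours 09 to 13. The 3 RMH4 tumours were the 3 lowest, and Dck was below Nt5c2 in each tumour. The mean was −0.99 ± 0.73 (SD, n = 10), and −0.82 ± 0.52 without tumour 05 (n = 9), a setting added after the values were seen. The ratio of tumour 08 was 4.75-fold that of tumour 05.

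The log2 ratio of Dck to Samhd1 per kb had a mean of −0.58 ± 0.43 (SD, n = 10), from −1.19 in tumour 11 to 0.15 in tumour 09, the only tumour above 0. Tumours 08 and 09 were the highest of the 10 for both this ratio and that to Nt5c2. With the longest transcript as the length the means were −1.43 to Nt5c2 and −1.42 to Samhd1, so that the order of tumours is measured here and the absolute balance depends on the length used.

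**Figure D3:**
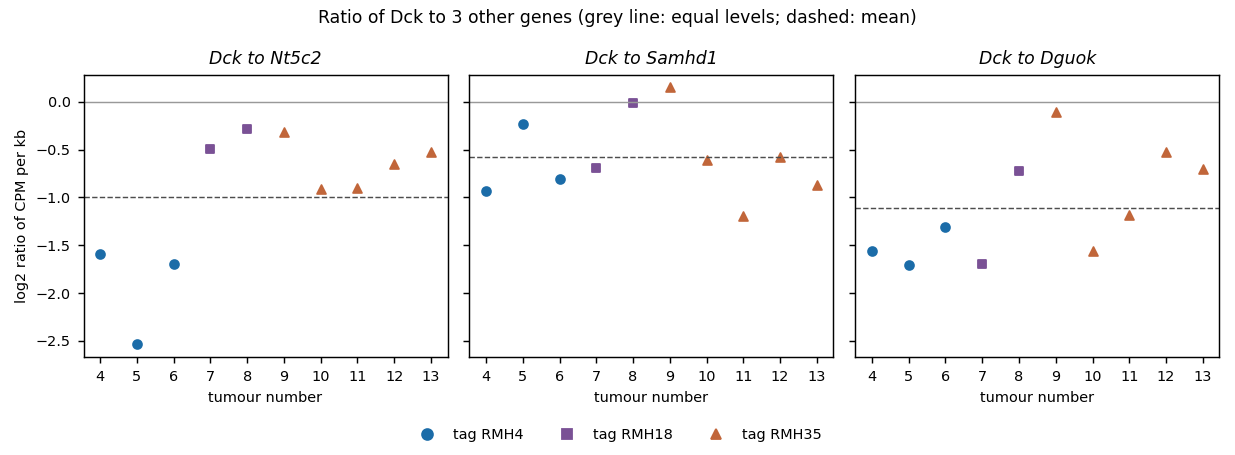
Log2 ratio of Dck to Nt5c2, Samhd1 and Dguok (y axis, per kb of exons) in tumours 04 to 13 (x axis), with the mean dashed, equal levels as a grey line and symbols for the 3 tag families. The ratio to Nt5c2 is lowest in the RMH4 tumours 04, 05 and 06, and the ratio to Dguok is highest in tumour 09 at −0.10.

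Rrm1 and Rrm2 encode the subunits of ribonucleotide reductase. Rrm1 (ENSMUSG00000030978, chr7:102441695-102469771, forward strand), the large catalytic subunit, was at 21.2, 19.4 and 22.1 CPM in tumours 04, 05 and 06, at 20.3 CPM in tumour 07 and 42.8 CPM in tumour 08, then at 28.4, 29.3, 21.3, 35.9 and 39.1 CPM in tumours 09 to 13. Rrm2 (ENSMUSG00000020649, chr12:24708254-24714146, forward strand), the small subunit that dividing cells make in S phase, was at 10.1, 14.7 and 14.0 CPM in tumours 04, 05 and 06, at 9.66 CPM in tumour 07 and 22.7 CPM in tumour 08, then at 31.7, 9.27, 6.49, 18.8 and 19.5 CPM in tumours 09 to 13. Tumours 08, 09, 12 and 13, the 4 highest for Dck, were also the 4 highest for Rrm2. The share of all genes with these tumours highest was not counted. For Rrm1, tumours 08, 13 and 12 were the 3 highest and tumour 10 came before tumour 09.

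Rrm2 had the wider range, 4.88-fold against 2.21-fold for Rrm1, with SDs of 0.69 and 0.42 log2 units (percentiles 87.2 and 76.0 of genes of similar expression). The log2 ratio of Rrm2 to Rrm1 per kb was 0.90 ± 0.55 (SD, n = 10), lowest in tumour 11 at 0.11 and highest in tumour 09 at 1.99. With the longest transcript as the length the mean was 0.13, the lowest value −0.65 and 6 of 10 tumours were above 0, so which subunit was more abundant depends on the length used. Rrm2b, the small subunit used outside S phase and a known target of p53, was at 3.75 ± 1.95 CPM (SD, n = 10) and was highest in tumour 05 at 8.12 CPM.

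The proximal promoters of Rrm1, Rrm2 and Dck are shown because these 3 genes had the steepest upward slopes of the 8 genes tested on the mean score of either cell cycle list, an order that does not hold under each alternative, since Ada came before Dck with the median over the mitotic list (0.25 against 0.22) and before all 3 with the small RNA score as a covariate. Each line gives the 250 bases before the gene's start from RefSeq on GRCm38.p6, on the forward strand, at chr7:102441445-102441694 for Rrm1, chr12:24708004-24708253 for Rrm2 and chr5:88764763-88765012 for Dck. Capitals mark matches to CCAAT, the site read by NF-Y, and to an E2F core motif (TTCCCGCC, TTCGCGCC, TTGCCGCC or TTGGCGCC), both searched on both strands.
Rrm1: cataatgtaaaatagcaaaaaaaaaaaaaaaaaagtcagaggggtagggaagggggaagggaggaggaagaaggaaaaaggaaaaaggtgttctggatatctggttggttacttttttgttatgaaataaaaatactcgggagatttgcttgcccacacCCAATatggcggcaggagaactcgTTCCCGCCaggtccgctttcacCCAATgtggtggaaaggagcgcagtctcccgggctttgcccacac
Rrm2: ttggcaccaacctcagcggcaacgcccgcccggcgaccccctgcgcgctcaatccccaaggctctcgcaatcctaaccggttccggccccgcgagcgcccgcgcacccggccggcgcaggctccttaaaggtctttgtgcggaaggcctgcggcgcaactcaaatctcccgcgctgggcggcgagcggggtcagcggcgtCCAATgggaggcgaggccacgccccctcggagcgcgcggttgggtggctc
Dck: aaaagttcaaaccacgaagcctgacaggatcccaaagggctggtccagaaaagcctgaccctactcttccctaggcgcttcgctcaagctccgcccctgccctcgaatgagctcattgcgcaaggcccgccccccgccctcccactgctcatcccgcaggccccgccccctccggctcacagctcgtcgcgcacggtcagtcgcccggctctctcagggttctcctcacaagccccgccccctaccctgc
The window of Rrm1 holds TTCCCGCC at bases −67 to −60 relative to the start and CCAAT at −91 to −87 and at −45 to −41. The window of Rrm2 holds CCAAT at −50 to −46, and that of Dck holds neither. Also searched, the cell cycle element CHR (TTTGAA), has its reverse form TTCAAA in the Dck window at −245 to −240 and no match in the other two. The motifs CACGTG and CTTTGAT and the E2F forms TTTCCCGC, TTTCGCGC, TTTGCCGC and TTTGGCGC had no match in the 3 windows. Among 32851 promoter windows of this length, 33.8% hold CCAAT, 3.32% an E2F core, 6.02% CACGTG, 3.21% CTTTGAT and 1.86% such an E2F form, and 5252 windows hold CHR. GC content was 46.0% for Rrm1, 72.4% for Rrm2 and 66.0% for Dck. The matches are letters in a window, and no binding was measured.

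Of the 8 genes tested, Rrm1 had the slope on proliferation that was largest against its error, with proliferation summarised as the mean log2 CPM of 16 mitotic genes such as Mki67, Top2a and Ccnb1. Its slope was 0.38 ± 0.08 log2 units per SD of the score (SE, n = 10, p = 0.00043), yet no gene passed in edgeR's quasi-likelihood test (0.0% of 12497 genes, adjusted p = 0.149 for Rrm1). At an unadjusted p under 0.05, 748 genes (5.99%) would pass. DESeq2's Wald test called 59 genes (0.472%), Rrm1 among them with an adjusted p of 0.0101. Leaving out each tumour in turn kept the slope between 0.33 and 0.42.

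The slopes of the other genes on proliferation were smaller against their errors. Rrm2 had a slope of 0.38 ± 0.18 and Dck of 0.26 ± 0.11 (SE, adjusted p = 0.847 and 0.832 in edgeR's quasi-likelihood test). Samhd1 had 0.12 ± 0.11, Ada 0.15 ± 0.16, Slc29a1 0.04 ± 0.13 and Dguok −0.08 ± 0.09 (SE). These 4 slopes moved by over 1.5 times, or turned, without single tumours. Samhd1 was 0.03 without tumour 05, 0.05 without tumour 13 and 0.20 without tumour 08, and Ada was 0.26 without tumour 07. Slc29a1 turned to −0.03 without tumour 04, was 0.02 without tumour 07, 12 or 13, and was 0.08 without tumour 08 and 0.11 without tumour 11. Dguok was −0.04 without tumour 05 and −0.15 without tumour 08.

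With a list of 16 G1/S genes such as Mcm2, Pcna and Ccne1 in place of the mitotic genes, 10 genes passed (0.08%) and 17.6% would pass unadjusted. The slope of Dck was then 0.32 ± 0.10 (SE, p = 0.00717, adjusted p = 0.147), that of Rrm2 0.39 ± 0.17 (adjusted p = 0.269) that of Rrm1 0.37 ± 0.08 (adjusted p = 0.0974) and that of Samhd1 0.22 ± 0.09 (p = 0.0367, adjusted p = 0.254), all in edgeR's quasi-likelihood test with Benjamini-Hochberg adjustment. In the same fit Nt5c2 had −0.31 ± 0.14, Dguok −0.16 ± 0.08, Slc29a1 0.14 ± 0.12 and Ada −0.03 ± 0.16 (SE), with adjusted p between 0.286 and 0.949. Tumours 08, 09, 12 and 13 had the 4 highest G1/S scores, between 3.44 and 3.80, and the other 6 were at or below 3.14. Tumours 08, 09, 10, 12 and 13 also had the lowest scores for small non-polyadenylated RNAs. With that score as a covariate the slopes on the mitotic list were 0.30 ± 0.08 for Rrm1, 0.31 ± 0.22 for Rrm2 and 0.19 ± 0.13 for Dck (SE). Ada moved from 0.15 to 0.35, the steepest of the 8 genes in that fit (± 0.14 SE, unadjusted p = 0.0357, adjusted p = 0.9999 in edgeR's quasi-likelihood test). Dguok moved from −0.08 to 0.001, Samhd1 from 0.12 to 0.05, Nt5c2 from −0.25 to −0.13 and Slc29a1 from 0.04 to 0.02.

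**Figure D4:**
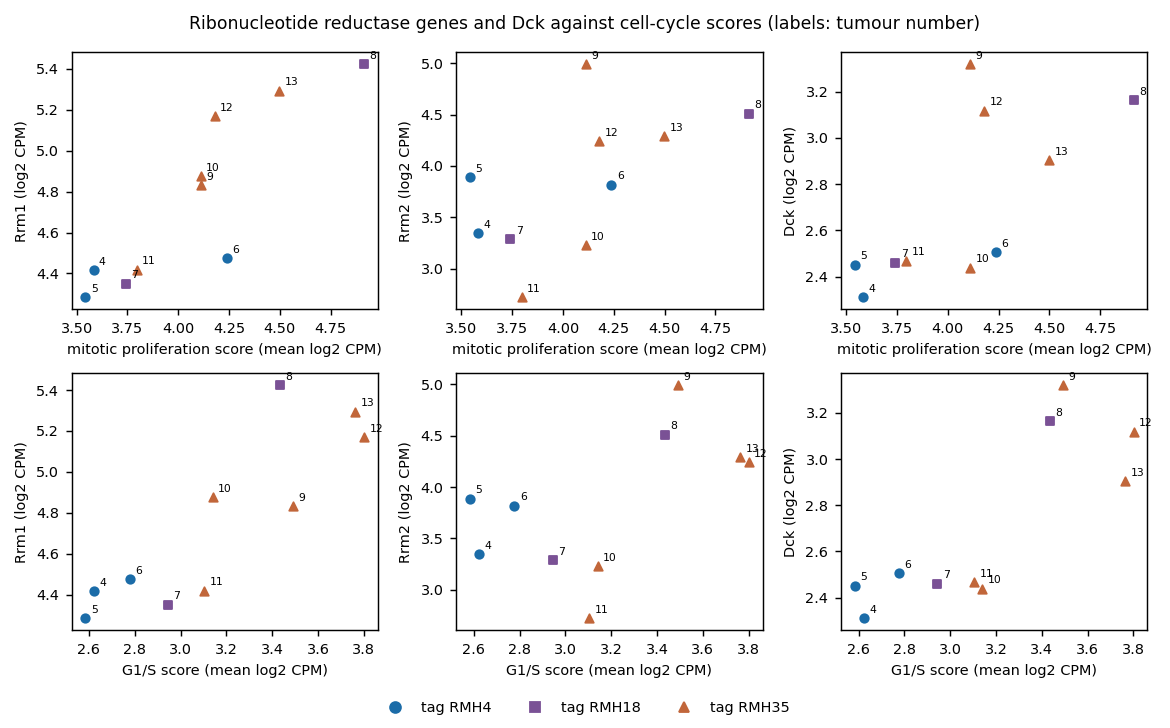
Log2 CPM of Rrm1, Rrm2 and Dck (y axes) against the mean log2 CPM of 16 mitotic genes (upper row) and of 16 G1/S genes (lower row), with 1 point per tumour labelled by its number and symbols for the 3 tag families. Rrm1 is highest in tumours 08 and 13, which have the 2 highest mitotic scores, and Dck is high in the 4 tumours with G1/S scores of 3.44 or more.

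The wider lists of DNA synthesis genes had single upward slopes and no adjusted call. Over all genes, 438 of 12497 (3.5%) had an upward slope on the mitotic score at an unadjusted p under 0.05. Of 8 polymerase and related genes 3 did so, namely Pole (0.48 ± 0.09), Pola1 (0.36 ± 0.14) and Prim1 (0.34 ± 0.13, SE), and the median slope of the list was 0.16 against 0.01 over all genes. Of 15 kinases 2 did so, Dck and the thymidylate kinase gene Dtymk (0.21 ± 0.07), with a median slope of 0.13. Of the 3 ribonucleotide reductase genes 1 did so, Rrm1, while Rrm2b had a slope of −0.31 ± 0.17 (SE).

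Slc29a1, Dck, Nt5c2, Samhd1, Ada, Rrm1 and Rrm2 each differed by more than 2-fold between the lowest and the highest tumour, as did 57.5% of all genes that passed the filter, and Dguok did not. Slc29a2, which did not pass the filter, differed 6.30-fold, which rests on tumour 07 with 5 counts (0.443 CPM, against 0.925 CPM in the next lowest), and no ratio was formed for Slc28a2. The median SD was 0.44 log2 units over the 10 genes and 0.34 over the genes tested, and the former includes the counting error of Slc29a2, Slc28a2 and Ada. None of the 40 fits of the 8 genes that passed the filter (on the proliferation, macrophage, interferon and endothelial scores and on the tag families) gave an adjusted p under 0.05 in edgeR.

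Dck and Rrm2 had closely similar patterns. By Pearson's r of log2 CPM over the 10 tumours, Rrm2 was number 21 among 12496 genes in likeness to Dck (r = 0.872) and Dck was number 11 in likeness to Rrm2. Rrm1 was number 129 in likeness to Dck (r = 0.765). These values describe the rank of 1 gene among all, over tumours that share tags, and carry no test.

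The genes most like Dck were Dld (r = 0.977) and Ncapg2 (0.958) of chromosome 12 and Copg2 (0.926), and those most like Rrm2 were Klhdc2 (0.967), Hif1a (0.961) and Ston2 (0.949), all of chromosome 12, where Rrm2 lies too. Of the 100 genes most like Rrm2, 19 were on chromosome 12, which holds 3.37% of the 12022 genes with a position, and of the 100 most like Dck, a gene of chromosome 5, 19 were as well. Ada had 12, Rrm1 and Samhd1 had 3 each, Nt5c2 had 1, and Dguok and Slc29a1 had 0. Clustering of this kind was not particular to chromosome 12, since 23 of the 100 genes most like Samhd1 were on chromosome 1, which holds 5.76% of genes. The median gene of chromosome 12 lay 0.20, 0.12, 0.07 and 0.18 log2 units above the mean of the other tumours in tumours 08, 09, 12 and 13, and Rrm2 lay 0.75, 1.29, 0.45 and 0.51 above. In tumour 07, however, the median of chromosome 12 lay 0.10 above, while Rrm2 lay at −0.61 and Dck at −0.28, and in tumour 06 it lay 0.02 above with Rrm2 at −0.02 and Dck at −0.23. The 8 genes tested within 1 Mb of Rrm2 had a median of −0.18 in tumour 09, where Rrm2 was highest.

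**Figure D5:**
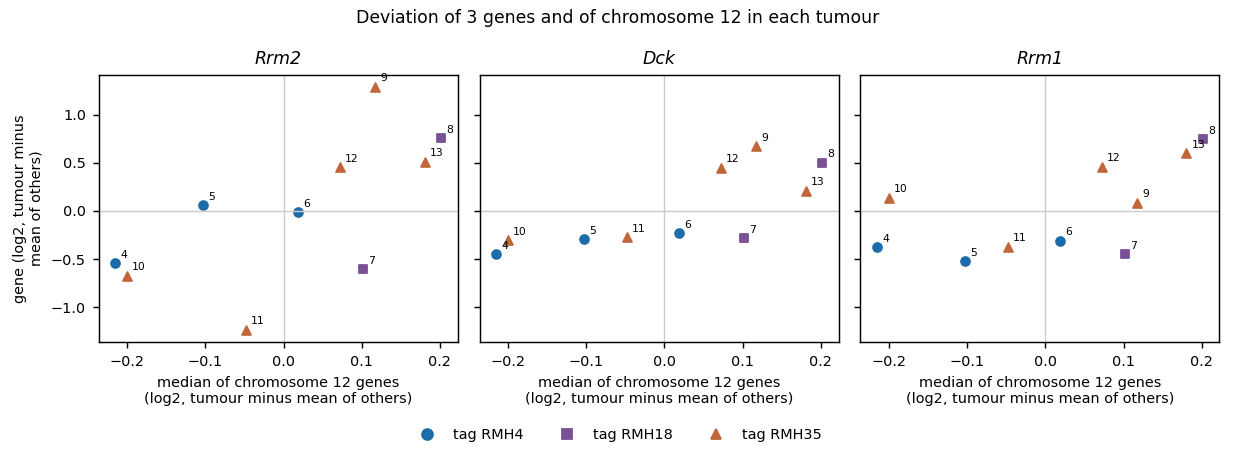
Deviation of Rrm2, Dck and Rrm1 (y axis) against the median deviation of the genes of chromosome 12 (x axis), both as log2 CPM of a tumour minus the mean of the other tumours, with 1 point per tumour labelled by its number and symbols for the 3 tag families. Tumours 08, 09, 12 and 13 are above 0 on both axes for Rrm2 and Dck, tumours 06 and 07 are above 0 for chromosome 12 alone, and the medians of chromosome 12 span only −0.22 to 0.20.

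For the other genes the closest patterns came from elsewhere. Rrm1 was most like Fanca (r = 0.971), a DNA repair gene, and like Bub1 (0.948) and Knl1 (0.947) of the mitotic checkpoint, of which Bub1 is also in the mitotic list. Dguok was most like Cyp4a10 (0.950) and Cyp4a14 (0.916), fatty acid hydroxylases under PPARα, and Gabarapl1 (0.914). Nt5c2 was most like Piga (0.969), Aebp2 (0.959) and Ripk4 (0.958), and Slc29a1 like Dexi (0.922), Med12 (0.921) and Rpl39-ps1 (0.920). Samhd1 was most like Itih2 (0.948), Pura (0.947) and Ppil3 (0.947). Ada, at its low counts, was most like Gm6374 (0.929), Gm10163 (0.908) and Pno1 (0.893).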

How the data were processed

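Polyadenylated RNA was measured in 19 samples per the labels. A single table of raw gene counts was deposited, with 39179 identifiers and 5 summary lines, which were left out of library sizes. The submitters' processing notes name TopHat2, HTSeq and GRCm38, without versions or roles, whereas the study's methods name STAR, featureCounts and GRCm39 for single-end reads, and these libraries were paired-end and made with a stranded kit. Whether counting used the strand is not given in the sources used here. Reads placed more than once made up 45.4% to 57.9% of the table's counts, reads outside genes 3.60% to 6.97% and ambiguous reads 1.16% to 1.66%. Of 19 columns 10 were matched to tumours by a number found in the title of a single sample, on the assumption that it is the library number, and the other 9 were not used.

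Counts were scaled with TMM and filtered with filterByExpr as 1 group (12497 genes) in edgeR 4.0.16 (R 4.3.3). For log2 CPM a prior count of 2 was added. Slopes of each gene on a standardised score (mean log2 CPM of a marker list) and differences between tag families were tested with edgeR's quasi-likelihood test and Benjamini-Hochberg adjustment over all genes tested, at a threshold of 0.05. DESeq2 1.42.0 was an alternative. The procedure was tested on simulated data in which genes and tumours were drawn independently, so tumours that share an animal were not covered. Levels between genes were compared as CPM per kb of the union of exons from GENCODE M39, by Ensembl identifier (34199 identifiers, 87.3%, had a symbol). Positions and promoters are those of RefSeq on GRCm38.p6. Intervals and floors cover counting error only. The summaries used Python 3.11.15, pandas 2.3.3 and scipy 1.17.1.

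Besides the 10 genes, those named are any other pathway gene past the threshold (none), 6 fixed pathway genes (Slc29a3, Rrm2b, Tk1, Tk2, Adk and Pnp, the last not matched by symbol), the 3 genes most like each of the 8 that passed the filter, and the markers at 0 or most abundant. The remaining pathway genes (Abcc4, Abcg2, Slc28a1, Nt5e, Nt5c, Nt5c1a, Xdh, Upp1, Pole, Pola1, Prim1 and Dtymk) were named after their values were seen. The genes and lists were chosen with earlier results of these data known.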

Additional observations from a re-analysis of the deposited data

How the results depend on the processing

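Depth limited Slc28a2, Slc29a2 and Ada. None of the 10 genes passed in edgeR under the alternatives run, and 2 of their 647 alternative fits passed, both in DESeq2 (Rrm1 on proliferation, slope 0.36, adjusted p = 0.0101, and Nt5c2 between tag families). Genes called on the proliferation score were 0, and 59 with DESeq2 and 10 with the G1/S list. On the macrophage score they were 0, 64 with DESeq2 and 0 to 1 leaving out each tumour (1 without tumour 04, 06 or 07). On the interferon score they were 0, 50 with DESeq2, 3 with the median over the list and 0 to 1 leaving out each tumour (1 without tumour 10). On the endothelial score they were 319, 573 with DESeq2 and 205 to 424 leaving out each tumour, with 211 without tumour 09 and 205 without tumour 13. Between tag families 1 gene was called, 27 without the filter, 498 with DESeq2, 0 with the small RNA score as a covariate and 0 to 188 leaving out each tumour (188 without tumour 09, 98 without 04, 5 without 08, 3 without 07 and 0 without 05, 06, 10, 11 or 13). The cause was not tested. The mean log2 CPM of Slc28a2 was −1.98, and −2.60 with a prior count of 0.5. No paired analysis was possible because no column of a control was matched to a sample, which left 1 group.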
